A study of Mus musculus with 54 samples.

Results

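Levels of 7 genes of fatty acid storage, binding and breakdown were followed in group 2 innate lymphoid cells (ILC2s) of the mouse small intestine: Dgat2, Dgat1, Pparg, Fabp5, Plin2, Cpt1a and Lpcat2. The genes were taken by name, for their roles in lipid handling, but with earlier results of these data known. All 7 were listed in both tables of expression values, out of 10799 genes listed for cultured cells and 10176 listed for nILC2 and iILC2. Each of the 7 passed the filter on low values, which left 10548 and 10069 genes to be tested.

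The values came from 40 RNA libraries made by the Smart-seq2 protocol, which copies whole transcripts from few cells, out of 54 samples in the series. In the culture experiment, ILC2s of wild-type (WT) mice were kept with the cytokines IL-2 and IL-7 alone, or with IL-25 added, for 4, 48 or 72 h, with 4 libraries in each of 6 groups. IL-25 is a cytokine that activates ILC2s in the gut. In the other experiment, cells called nILC2 and iILC2 came from CTRL and KO mice, with 4 libraries in each of 4 groups, and all 16 libraries carry the labels IL25 and 48 h. The KO is of Rxrg, the gamma form of the retinoid X receptor; the series text names the mice Rxrg+/+ and Rxrg-/-, whereas another deposited source abbreviates the knockout as cKO, so whether the deletion was limited to some cells is not given in the sources used here. What the prefixes n and i stand for is not given, and whether these cells were taken straight from IL-25-treated mice is not stated sample by sample. All mice were C57BL/6, aged 8 to 12 weeks, and labelled as pooled male and female. The labels do not say whether libraries of a group came from separate mice or cultures, so the p-values measure the spread between these libraries, which in the culture experiment may be technical.

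Fatty acids that enter a cell are bound by small carrier proteins, joined to coenzyme A and then either built into triglyceride, built into membrane phospholipid or burnt in mitochondria. DGAT1 and DGAT2 are unrelated enzymes that both catalyse the last step of triglyceride synthesis, and the product is held in lipid droplets coated by perilipins such as PLIN2. PPARG is a nuclear receptor activated by fatty acids; it pairs with a retinoid X receptor on DNA and is best known as the regulator of fat cell formation.

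Expression is given as TPM, a level scaled to transcript length and to the library's total, so that genes may be compared with each other. The depth of each library is unknown, since TPM keeps no read total; 9532 to 9941 genes per culture library and 9530 to 9864 per nILC2 or iILC2 library reached 1 TPM. All 12 ILC2 markers were listed, with summed levels of 2537 to 3708 TPM in culture, 2089 to 3130 TPM in nILC2 and 1392 to 1579 TPM in iILC2. Single ILC2 markers moved in both directions beneath these sums, as given further below. None of 7 adipocyte markers and none of 9 markers of mast cells, basophils and granulocytes was listed, and of 10 markers of macrophages and dendritic cells only Cd68 was, at no more than 11.2 TPM. The Y-linked genes Eif2s3y, Ddx3y, Kdm5d and Uty summed to 94.8 to 168 TPM in all 24 culture libraries, but to no more than 0.59 TPM in 6 of the 16 nILC2 and iILC2 libraries and to 93.4 to 142 TPM in the other 10. These 6 libraries go against the label of pooled male and female mice; they were replicate 2 of both CTRL groups and replicates 1 and 2 of both KO groups, so the same numbers in nILC2 and iILC2. Each of these 4 groups thus held libraries with and without Y-linked expression. With a replicate block, the calls of the 7 genes between iILC2 and nILC2 stayed at 5 in either genotype. That block ties equal numbers across all 4 groups, CTRL and KO alike. A pairing of nILC2 with iILC2 within 1 genotype was not fitted. Rxrg lay between 1.27 and 3.12 TPM in nILC2 KO libraries and between 12.2 and 18.4 TPM in CTRL (6.90-fold, two-sided exact permutation p = 0.0286, the smallest that 4 against 4 allows), and between 0 and 0.48 TPM in iILC2 KO libraries against 1.26 to 1.83 TPM in CTRL.

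All 7 genes differed between cultures with and without IL-25 at 4 h, and most still differed at 48 and 72 h, but in other directions for several of them. A gene is called where its Benjamini-Hochberg adjusted p over all genes tested, from limma on log2(TPM + 1), is under 0.05. At 4 h, 2 of the 7 rose with IL-25 (Dgat2 and Fabp5) and 5 fell (Dgat1, Pparg, Plin2, Cpt1a and Lpcat2), while 40.3% of all genes tested were called, 13.4% higher and 26.9% lower. At 48 h, 5 rose and only Lpcat2 fell, against a background of 50.1% of genes called, 21.4% higher and 28.7% lower; Cpt1a was not called (adjusted p = 0.081). At 72 h, Dgat2, Dgat1, Pparg and Fabp5 rose and Cpt1a and Lpcat2 fell, against a background of 48.5% called, 15.3% higher and 33.2% lower; Plin2 was not called (adjusted p = 0.38). The change of the IL-25 difference between 4 and 48 h was itself called for all 7 genes, 5 upward and 2 downward, where 27.9% of all genes were, 17.2% upward and 10.7% downward. With so large a share of all genes called, a call on its own sets none of the 7 apart. The median gene was 0.12, 0.09 and 0.20 lower with IL-25 at the 3 times on the log2 scale (medians of -0.12, -0.09 and -0.20), and rescaling by the median of ratios, which brings these medians to about 0, moved the share of calls that were higher from 33.3% to 51.5% at 4 h and from 31.5% to 55.1% at 72 h; no member reversed. In bulk libraries such as these, fewer cells of a type and less RNA per cell cannot be told apart.

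**Figure D1:**
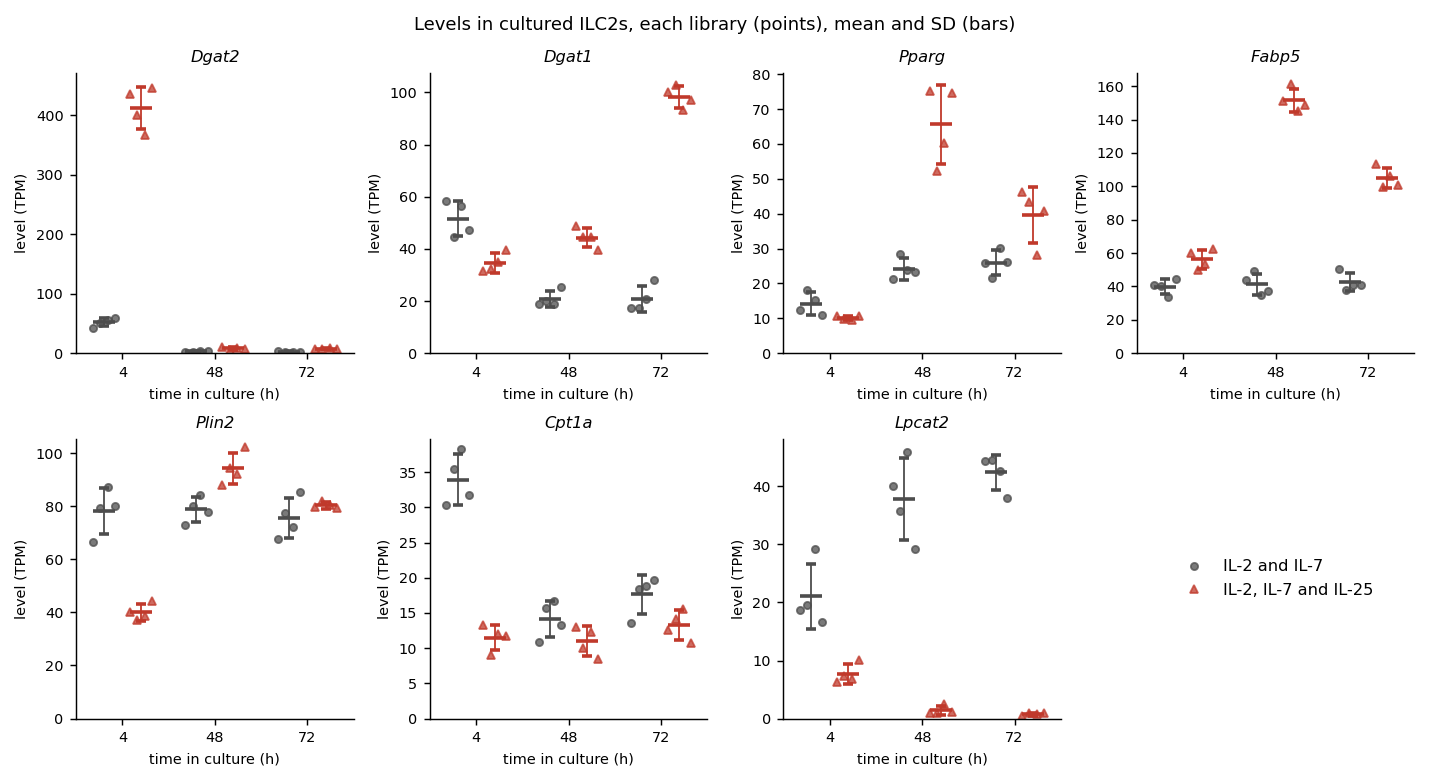
Level (TPM, linear axes from 0) of each of the 7 genes in the 24 culture libraries against time in culture (h, the 3 times shown evenly spaced). Points are single libraries, grey circles without and red triangles with IL-25, and bars give the mean and SD of 4 libraries. Dgat2 stood at 366.5 to 445.9 TPM with IL-25 at 4 h and below 11 TPM in every library at 48 and 72 h, whereas Dgat1, Pparg and Fabp5 were highest with IL-25 at 48 or 72 h.

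Dgat2 (chr7:99153663-99182713, GRCm38.p6, as all gene positions here) had the widest range of the 7. Without IL-25 at 4 h the libraries held 43.1, 51.5, 55.5 and 58.7 TPM, and with IL-25 they held 434.8, 400.2, 366.5 and 445.9 TPM. Every library with IL-25 was thus far above every library without it, by 7.89-fold between the means, a difference of 2.96 ± 0.19 (SE) in log2(TPM + 1) (adjusted p = 7.5e-12). By 48 h the gene had dropped to 2.26, 1.86, 3.73 and 4.07 TPM without IL-25 and to 10.4, 6.12, 9.53 and 6.83 TPM with it. At 72 h the values were 3.12, 2.59, 1.55 and 1.51 TPM without and 6.95, 7.44, 9.24 and 7.76 TPM with IL-25. The libraries with IL-25 remained above those without at both later times (log2 differences of 1.23 ± 0.19 and 1.50 ± 0.19, adjusted p = 6.7e-06 and 4.2e-07), at levels of only a few TPM. Between 4 and 48 h the mean fell 17.5-fold without IL-25 and 50.1-fold with it (log2 differences of -3.77 and -5.51, adjusted p = 9.6e-15 and 2.8e-18), and the IL-25 difference shrank by 1.74 ± 0.27 on the log2 scale (change of -1.74, adjusted p = 1.7e-05). From 48 to 72 h no further change was called in either medium (adjusted p = 0.57 and 0.91). In order of mean level, 4 h with IL-25 stood first and 4 h without IL-25 next, both clear of all other groups; 48 and 72 h with IL-25 overlapped each other, as did 48 and 72 h without it.

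Dgat1 (chr15:76502012-76512021), the other enzyme for the same step, followed another course. At 4 h it held 58.2, 44.5, 56.4 and 47.2 TPM without IL-25 and 31.6, 32.2, 35.0 and 39.7 TPM with it, so that all libraries with IL-25 were lower (1.49-fold; log2 difference -0.56 ± 0.13, adjusted p = 0.0011). At 48 h the libraries without IL-25 had fallen to 18.7, 20.2, 19.1 and 25.4 TPM, and those with IL-25 held 48.7, 44.5, 44.5 and 39.7 TPM. At 72 h the gap had widened, with 17.3, 17.2, 20.7 and 27.9 TPM without and 100.1, 103.0, 93.2 and 97.1 TPM with IL-25. IL-25 cultures were therefore 2.13-fold higher at 48 h (log2 difference 1.06 ± 0.13, adjusted p = 1.7e-07) and 4.73-fold higher at 72 h (2.21 ± 0.13, adjusted p = 2.5e-13). The IL-25 difference itself turned upward between 4 and 48 h, by 1.62 ± 0.18 (adjusted p = 1.4e-07), and rose again between 48 and 72 h, by 1.15 ± 0.18 (adjusted p = 7.7e-05). Within IL-25 cultures the step from 4 to 48 h was small (log2 difference 0.35, adjusted p = 0.017) and was lost without replicate 1 of either group (adjusted p = 0.052 and 0.053), while the rise from 48 to 72 h was 2.22-fold (1.13 ± 0.13, adjusted p = 1.8e-07).

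Because TPM is scaled to length, the 2 enzymes can be set against each other within a library. Dgat2 made up 50.3 ± 5.71% (SD, n = 4) of their summed level at 4 h without IL-25 and 92.2 ± 0.85% with it. At 48 h its share was 12.4 ± 3.47% without and 15.5 ± 2.68% with IL-25, and at 72 h it was 10.1 ± 4.83% and 7.41 ± 1.14%. The summed level was 446.5 TPM at 4 h with IL-25 and 106.2 TPM at 72 h with IL-25, so the IL-25 cultures carried mostly Dgat2 transcripts at the first time and mostly Dgat1 transcripts at the last. In nILC2 the share was 96.2 ± 0.38% in CTRL and 94.1 ± 1.81% in KO, and in iILC2 it was 18.9 ± 10.3% in CTRL and 19.6 ± 4.36% in KO. The wide spread in iILC2 CTRL comes with Dgat2 levels of 1.16 to 5.91 TPM.

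**Figure D2:**
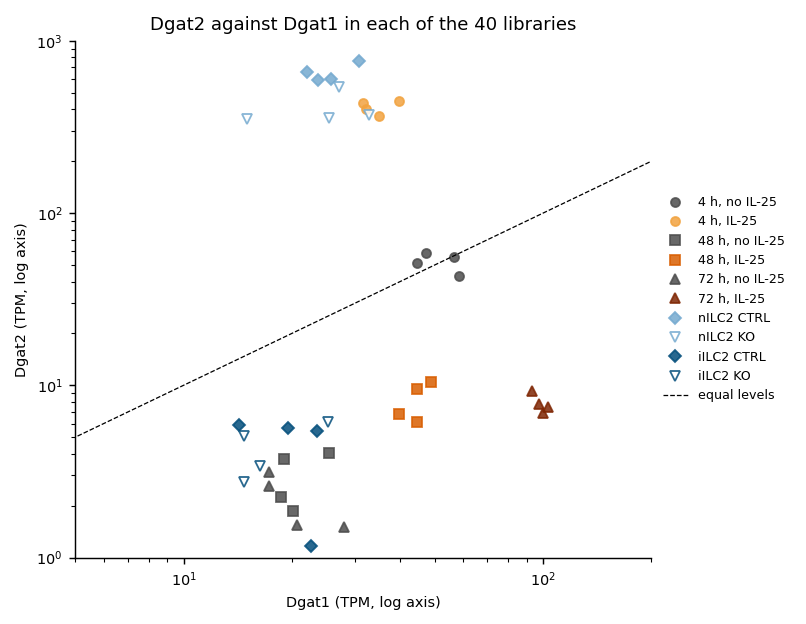
Dgat2 (vertical) against Dgat1 (horizontal), both in TPM on log axes, with 1 point for each of the 40 libraries and a dashed line where the 2 levels are equal. Cultures at 4 h with IL-25 and all nILC2 libraries lie far above the line, cultures at 4 h without IL-25 lie near it (mean Dgat2 share 50.3%), and all cultures at 48 and 72 h and all iILC2 libraries lie below it.

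Pparg (chr6:115360879-115490404) was low at 4 h and higher later. The libraries held 12.4, 18.2, 15.3 and 10.9 TPM without IL-25 at 4 h and 10.7, 9.75, 9.50 and 10.8 TPM with it. All 4 values with IL-25 were below those without it, by little against the lowest of them (log2 difference -0.42 ± 0.16, adjusted p = 0.035). That call did not hold after rescaling by the median of ratios (-0.28, adjusted p = 0.16), after quantile normalization (-0.20, adjusted p = 0.32), with the compared groups fitted alone (adjusted p = 0.068) or without any of 4 single libraries (adjusted p up to 0.15). At 48 h Pparg held 21.2, 28.6, 23.8 and 23.3 TPM without IL-25 and 75.3, 52.3, 60.2 and 74.7 TPM with it, a 2.71-fold difference with no overlap (log2 difference 1.39 ± 0.16, adjusted p = 6.0e-08). At 72 h it held 26.0, 21.5, 30.1 and 26.2 TPM without and 46.1, 43.4, 28.04 and 40.8 TPM with IL-25. There the ranges overlapped through 1 IL-25 library at 28.04 TPM, and the difference was 0.58 ± 0.16 (adjusted p = 0.0041). Within IL-25 cultures Pparg rose 6.45-fold from 4 to 48 h (log2 difference 2.56 ± 0.16, adjusted p = 3.0e-13) and fell again by 72 h (-0.72 ± 0.16, adjusted p = 0.00087). Without IL-25 it rose 1.70-fold from 4 to 48 h (0.74 ± 0.16, adjusted p = 0.00024). The IL-25 difference moved upward between 4 and 48 h (1.82 ± 0.22, adjusted p = 6.5e-07) and downward between 48 and 72 h (-0.82 ± 0.22, adjusted p = 0.014, but 0.061 after quantile normalization).

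Receptors of the PPARG and RXR kind bind DNA at repeats of a short motif, AGGTCA, so the bases before the start sites of the members were read for it. RefSeq's promoter table for GRCm38.p6 matched 4 of the 7 genes, Pparg, Plin2, Cpt1a and Lpcat2. The 250 bases before 2 of the 3 listed Pparg starts and before the starts of Plin2, Cpt1a and Lpcat2 are shown 5′ to 3′ on the gene's strand. These listed starts lie inside the gene spans given here, so the windows lie wholly (Pparg, Cpt1a) or partly (Plin2, Lpcat2) within the genes. Capitals mark 4 motifs, each searched on both strands: the receptor motif AGGTCA, the promoter element called a GC box (GGGCGG), the element known as the CCAAT box, and the element known as the TATA box, searched as TATAAA. A match on the opposite strand appears as its reverse complement.
Pparg, first start, chr6:115360894-115361143, plus strand: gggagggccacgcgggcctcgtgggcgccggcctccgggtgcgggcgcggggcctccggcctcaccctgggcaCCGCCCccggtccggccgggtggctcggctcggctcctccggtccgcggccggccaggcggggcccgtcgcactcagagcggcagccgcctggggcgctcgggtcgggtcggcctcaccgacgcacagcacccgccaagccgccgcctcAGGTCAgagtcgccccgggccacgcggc
Pparg, next start, chr6:115362099-115362348, plus strand: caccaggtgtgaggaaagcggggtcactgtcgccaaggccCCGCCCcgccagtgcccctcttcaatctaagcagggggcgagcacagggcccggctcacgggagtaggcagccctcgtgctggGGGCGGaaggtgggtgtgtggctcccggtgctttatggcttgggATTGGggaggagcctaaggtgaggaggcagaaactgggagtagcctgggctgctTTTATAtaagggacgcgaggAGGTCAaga
Plin2, chr4:86670060-86670309, minus strand: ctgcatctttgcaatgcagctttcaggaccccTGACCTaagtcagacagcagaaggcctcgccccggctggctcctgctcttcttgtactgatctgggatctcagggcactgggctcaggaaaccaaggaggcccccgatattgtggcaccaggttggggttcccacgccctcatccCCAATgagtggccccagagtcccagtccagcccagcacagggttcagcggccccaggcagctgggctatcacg
Cpt1a, chr19:3323051-3323300, plus strand: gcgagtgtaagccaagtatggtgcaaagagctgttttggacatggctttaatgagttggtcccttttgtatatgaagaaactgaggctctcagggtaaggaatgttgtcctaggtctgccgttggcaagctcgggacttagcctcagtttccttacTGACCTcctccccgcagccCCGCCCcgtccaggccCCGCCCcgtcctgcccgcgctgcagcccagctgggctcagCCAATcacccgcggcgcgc
Lpcat2, chr8:92855083-92855332, plus strand: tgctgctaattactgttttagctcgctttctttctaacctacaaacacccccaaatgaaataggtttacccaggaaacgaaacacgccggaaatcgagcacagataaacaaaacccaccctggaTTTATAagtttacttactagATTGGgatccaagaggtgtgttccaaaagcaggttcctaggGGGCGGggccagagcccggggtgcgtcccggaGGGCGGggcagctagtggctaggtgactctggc
The receptor motif lay 28 to 23 bases before the first Pparg start and 9 to 4 bases before the next one. It lay 218 to 213 bases before the Plin2 start and 94 to 89 bases before the Cpt1a start, both on the opposite strand. It was not in the window of the other Pparg start, nor in that of Lpcat2, which held 2 matches of the GC box, 1 of the CCAAT box and 1 of the TATA box. Among all 32851 promoter windows of the same length, 14.0% held the receptor motif, 32.7% the GC box, 33.9% the CCAAT box and 12.4% the TATA box, so a match is common. Exact direct repeats of the receptor motif, named DR1 and DR4, lie in only 0.0335% and 0.0152% of all windows, so a lack of them says little. They were searched too and had no match in these windows. Nor had the NF-kB core (GGGACTTTC), the motif of AP-1 factors (TGAGTCA), that of STAT factors (TTCNNNGAA) or the E-box searched as CACGTG; among all windows their shares were 0.289%, 4.46%, 7.02% and 6.02%. No 2 matches overlapped. A match describes letters only, and binding at these sites was not tested here.

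Fabp5 (chr3:10012585-10016610) encodes a fatty acid carrier of the cytosol. It was higher with IL-25 at every time. At 4 h the libraries held 40.9, 40.1, 33.5 and 44.3 TPM without and 59.9, 50, 53.4 and 62.3 TPM with IL-25 (log2 difference 0.50 ± 0.11, adjusted p = 0.00051). At 48 h they held 43.8, 49.3, 35.2 and 37.1 TPM without and 151.2, 161.4, 145.1 and 148.8 TPM with IL-25 (1.86 ± 0.11, adjusted p = 1.6e-13). The values with IL-25 at 48 h were thus 3.67-fold those without, with no overlap. At 72 h they were 50.5, 37.8, 41.1 and 40.7 TPM without and 113.4, 99.9, 106.4 and 100.9 TPM with IL-25 (1.29 ± 0.11, adjusted p = 2.1e-10). The 3 groups without IL-25 overlapped one another, with means between 39.7 and 42.5 TPM. Relative to the median of all genes, which stood 0.28 lower at 48 than at 4 h without IL-25, Fabp5 was higher at 48 h after rescaling by the median of ratios (0.37, adjusted p = 0.013) and after quantile normalization (0.32, adjusted p = 0.035), against 0.05 (adjusted p = 0.70) on the deposited scale. The IL-25 difference grew between 4 and 48 h by 1.37 ± 0.15 (adjusted p = 9.6e-08) and shrank between 48 and 72 h (-0.57 ± 0.15, adjusted p = 0.010), the latter not after rescaling (-0.44, adjusted p = 0.10) or quantile normalization (-0.42, adjusted p = 0.14). The reference lists a near copy, the pseudogene Fabp5l2, so reads may have been split between them and the absolute level of Fabp5 is uncertain.

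Plin2 (chr4:86626910-86670217), the coat protein of lipid droplets in cells other than fat cells, was set apart by 1 low group. At 4 h it held 66.6, 79.2, 87.3 and 80.0 TPM without IL-25 and 40.01, 37.2, 38.5 and 44.2 TPM with it (1.96-fold lower; log2 difference -0.95 ± 0.08, adjusted p = 1.7e-09). At 48 h it held 73.0, 80.0, 84.3 and 78.0 TPM without and 88.1, 94.5, 92.0 and 102.2 TPM with IL-25. The ranges did not overlap, but the difference was small (0.25 ± 0.08, adjusted p = 0.014) and was lost after quantile normalization (0.15, adjusted p = 0.087) and without replicate 4 of the IL-25 cultures (0.21, adjusted p = 0.055). At 72 h it held 67.7, 77.4, 72.1 and 85.3 TPM without and 79.6, 82.0, 80.5 and 79.2 TPM with IL-25, which overlapped (0.09 ± 0.08, adjusted p = 0.38); after rescaling by the median of ratios the difference was 0.32 (adjusted p = 0.0010). From 4 to 48 h the gene rose 2.36-fold with IL-25 (1.22 ± 0.08, adjusted p = 2.5e-12). Without IL-25 the same step gave 0.01 ± 0.08 (adjusted p = 0.89) on the deposited scale and 0.34 (adjusted p = 0.00036) after rescaling. The IL-25 difference moved upward by 1.20 ± 0.12 between 4 and 48 h (adjusted p = 1.7e-08).

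Cpt1a (chr19:3322326-3385735), the gate of long-chain fatty acids into mitochondria for oxidation, was highest at 4 h without IL-25, at 30.3, 35.4, 38.3 and 31.8 TPM. With IL-25 at that time it held 13.3, 8.96, 11.9 and 11.8 TPM, 2.96-fold lower with no overlap (log2 difference -1.49 ± 0.16, adjusted p = 4.0e-08). At 48 h it held 10.9, 15.8, 16.7 and 13.2 TPM without and 13.1, 10.1, 12.4 and 8.50 TPM with IL-25, and at 72 h 13.6, 18.5, 18.8 and 19.7 TPM without and 12.6, 14.1, 15.6 and 10.7 TPM with it. Both later pairs overlapped, and the differences were -0.34 ± 0.16 (adjusted p = 0.081) and -0.38 ± 0.16 (adjusted p = 0.049). The call at 72 h did not hold with 5 of the 7 other settings (adjusted p up to 0.35) or without any of 6 single libraries (adjusted p up to 0.16). The fall from 4 to 48 h without IL-25 was 2.40-fold (-1.22 ± 0.16, adjusted p = 3.5e-07), whereas with IL-25 the step was -0.06 ± 0.16 (adjusted p = 0.74). The IL-25 difference shrank toward 0 between 4 and 48 h (change of 1.16 ± 0.22, adjusted p = 0.00029).

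Lpcat2 (chr8:92855313-92919279) encodes an acyltransferase that remodels phosphatidylcholine and can make the lipid mediator platelet-activating factor. It was lower with IL-25 at every time. At 4 h it held 18.8, 19.6, 29.2 and 16.7 TPM without and 6.29, 7.28, 6.89 and 10.1 TPM with IL-25 (2.76-fold lower; log2 difference -1.34 ± 0.20, adjusted p = 5.2e-06). At 48 h it held 40.1, 35.9, 46.0 and 29.2 TPM without and 1.02, 0.96, 2.58 and 1.20 TPM with IL-25 (26.3-fold lower; -4.02 ± 0.20, adjusted p = 8.1e-15). At 72 h it held 44.5, 44.6, 42.7 and 38.1 TPM without and 0.40, 0.92, 0.75 and 0.94 TPM with IL-25 (56.4-fold lower; -4.64 ± 0.20, adjusted p = 4.8e-16). The groups with and without IL-25 did not overlap at any time. The change of the IL-25 difference was -2.68 ± 0.28 between 4 and 48 h (adjusted p = 3.6e-08), and between 48 and 72 h it was -0.62 ± 0.28 (adjusted p = 0.15). Without IL-25 the gene rose 1.80-fold from 4 to 48 h (0.83 ± 0.20, adjusted p = 0.00071). With IL-25 it fell 5.31-fold over that step (-1.85 ± 0.20, adjusted p = 7.0e-09), and from 48 to 72 h all 4 libraries were lower still, at an adjusted p of 0.090 on the deposited scale and 0.023 with a pseudocount of 0.1 TPM.

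Across time within one medium, 5 of the 7 genes were called between 4 and 48 h without IL-25 (Pparg and Lpcat2 up, Dgat2, Dgat1 and Cpt1a down), where 64.4% of all genes were, 19.9% higher and 44.5% lower (30.8% of calls higher, and 51.7% with median of ratios rescaling). None was called between 48 and 72 h without IL-25 (limma), where 0.379% of all genes were (75% of calls higher, and 31.9% after rescaling); none of the 7 had an unadjusted p under 0.05 there. With IL-25, 6 were called between 4 and 48 h (Dgat1, Pparg, Fabp5 and Plin2 up, Dgat2 and Lpcat2 down) against 72.2% of all genes, 27.6% higher and 44.5% lower (38.3% of calls higher, and 50.9% after rescaling). Between 48 and 72 h, 4 were called (Dgat1 up, Pparg, Fabp5 and Plin2 down) against 31.2%, 13.4% higher and 17.9% lower (42.9% of calls higher, and 53.2% after rescaling). The fall of Plin2 was slight (-0.23, adjusted p = 0.043) and was lost without any of 7 of the 8 libraries, after rescaling (adjusted p = 0.11) and after quantile normalization (adjusted p = 0.24). The change of the IL-25 difference from 48 to 72 h was called for 3 of the 7 genes, 1 upward and 2 downward, where 14.7% of all genes were, 5.22% upward and 9.50% downward (35.5% of calls upward, and 58.8% after rescaling).

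Transcripts used as markers of other cell types moved with IL-25 as well, and which cells they came from was not tested. Alpha globin Hba-a1 and Hba-a2, the 2 listed of 5 red cell markers, summed to 60.5 to 82.5 TPM without IL-25 at 4 h and to 479.3 to 798.4 TPM at 48 and 72 h, against 5.60 to 20.9 TPM in all IL-25 cultures. Pecam1, the 1 listed of 7 stroma markers, held 146.4 to 160.8 TPM with IL-25 at 4 h and 11.9 to 42.4 TPM in the other culture groups. The 3 listed of 8 T cell markers, mainly Cd3g, summed to 83.6 to 129.7 TPM without IL-25 at 48 and 72 h and to 20.5 to 42.3 TPM in the other groups. Cd79b, the 1 listed of 6 B cell markers, held 71.3 to 156.9 TPM with IL-25 at 48 and 72 h and 12.3 to 49.8 TPM elsewhere in culture. Epcam, Krt18 and Lgals4, the 3 listed of 11 markers of intestinal epithelium, summed to 179.8 to 197.2 TPM at 4 h without IL-25 and to 38.4 to 121.9 TPM in the other culture groups. Epcam made up most of these sums (170.3 to 185.8 TPM at 4 h without IL-25), while Krt18 went the other way, from at most 0.87 TPM at 4 h and without IL-25 to 4.20 to 9.58 TPM at 48 h and 9.77 to 12.6 TPM at 72 h with IL-25. The ILC2 markers moved too. At 72 h Gata3, Rora, Il7r, Thy1, Id2, Il17rb and Bcl11b averaged lower with IL-25 than without. The other ILC2 markers averaged higher at that time. Among them all, Il17rb averaged 12.1 TPM with and 140.9 TPM without IL-25, and Klrg1 averaged 929.8 and 482.2 TPM. The part of any of these markers in the differences of the 7 genes was not tested.

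**Figure D3:**
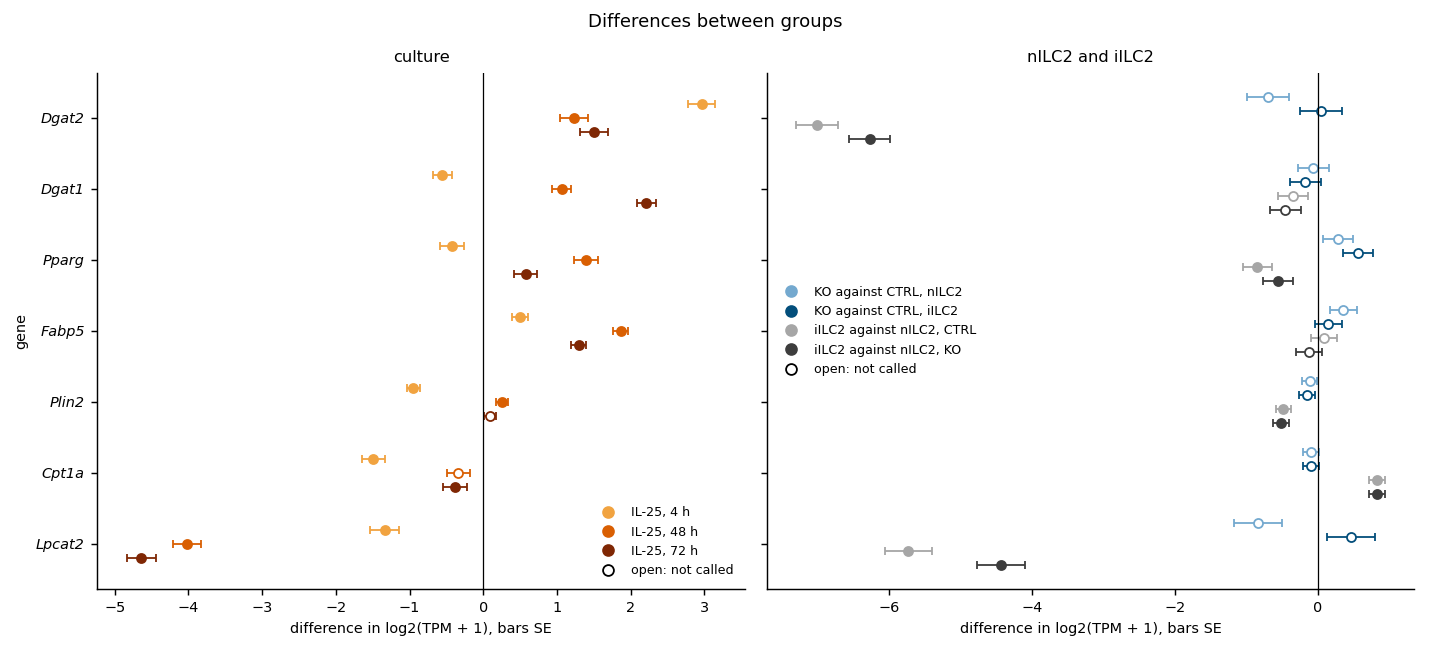
Differences between groups in log2(TPM + 1) (horizontal axis, bars SE) for each of the 7 genes, with IL-25 against none at 3 times on the left and KO against CTRL and iILC2 against nILC2 on the right. Filled points were called and open points were not; Dgat1, Pparg and Plin2 lie left of 0 at 4 h and right of 0 at 48 h, and none of the KO points is filled.

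The wider pathways were read from 9 gene lists, whose genes partly overlap. With IL-25 at 4 h, 13.4% of all genes were called higher and 26.9% lower. At 48 h these shares were 21.4% and 28.7%, and at 72 h 15.3% and 33.2%. They are the background for the list counts that follow, and no list was tested against them. For synthesis of glycerolipids, 14 of 18 genes were tested, and the list holds Dgat1 and Dgat2. It also holds Soat1 and Soat2, which esterify cholesterol, so its counts and medians are not of glycerolipid genes alone. At 4 h 3 rose and 2 fell with IL-25, at 48 h 5 rose and 2 fell, and at 72 h 6 rose and 3 fell, with list medians of -0.01, 0.22 and 0.11 on the log2 scale beside -0.12, -0.09 and -0.20 for all genes. Rescaling by median of ratios gave 5 and 2 at 4 h, 8 and 2 at 48 h and 8 and 2 at 72 h, and quantile normalization gave 6 and 2, 8 and 2, and 7 and 2. Agpat4, an enzyme of phosphatidic acid synthesis, was 62.0 TPM with and 7.66 TPM without IL-25 at 48 h (log2 difference 2.87, adjusted p = 6.4e-10) and 50.04 against 7.33 TPM at 72 h (2.62, adjusted p = 4.2e-09). Soat1, which esterifies cholesterol for storage, was 67.3 against 31.2 TPM at 72 h (1.11, adjusted p = 5.0e-06). Lpin2, a phosphatidate phosphatase, was 3.82 against 11.2 TPM at 48 h (-1.35, adjusted p = 3.3e-08). Between 4 and 48 h without IL-25, 11 of the 14 fell and none rose (list median -0.93 beside -0.28), where 44.5% of all genes were called lower. After rescaling by the median of ratios, 8 fell and 1 rose over that step (list median -0.61).

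Of 10 tested genes for the coat and assembly of lipid droplets, which include Plin2, 1 rose and 4 fell with IL-25 at 4 h, 3 rose and 3 fell at 48 h, and 1 rose and 4 fell at 72 h, where rescaling by the median of ratios gave 4 and 2. Plin3, another droplet coat protein, stood at 3.07 TPM with and 13.9 TPM without IL-25 at 4 h (-1.85, adjusted p = 3.5e-08). Hilpda, a droplet protein that restrains lipolysis, was 110.9 against 40.1 TPM at 48 h (1.45, adjusted p = 2.3e-12) and 251.1 against 38.3 TPM at 72 h (2.68, adjusted p = 1.3e-17). The perilipins of fat cells and of oxidative tissue, Plin1, Plin4 and Plin5, were not among the listed genes. Of 6 tested lipolysis genes, none rose and 3 fell at 4 h, 1 rose and 4 fell at 48 h, and none rose and 4 fell at 72 h, with list medians of -0.56, -0.69 and -0.54; at 72 h rescaling gave 1 and 2. Lipa, the acid lipase of lysosomes, was 8.34 against 14.9 TPM at 4 h (-0.79, adjusted p = 0.00011), and Mgll, which splits monoglycerides, was 3.05 against 12.9 TPM at 72 h (-1.92, adjusted p = 0.00060).

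Of 18 tested genes for import of fatty acids into mitochondria and their beta oxidation, which include Cpt1a, none rose and 11 fell with IL-25 at 4 h (list median -0.51 beside -0.12 for all genes). Hadh, a dehydrogenase of the pathway, was 18.6 TPM with and 56.3 TPM without IL-25 at 4 h (-1.56, adjusted p = 2.1e-12), and the thiolase Acaa2 was 17.1 against 50.9 TPM (-1.52, adjusted p = 1.9e-12). At 48 h 5 rose and 3 fell, among them Hadh at 69.0 against 38.1 TPM (0.84, adjusted p = 3.6e-08) and Decr1, needed for unsaturated fatty acids, at 12.5 against 24.2 TPM (-0.91, adjusted p = 7.1e-06). At 72 h 1 rose and 7 fell, and rescaling by the median of ratios gave 9 and 2 at 48 h and 4 and 3 at 72 h. The change of the IL-25 difference from 4 to 48 h was called upward for 12 of the 18 and downward for none (list median 0.65 beside 0.04). Over all genes it was called upward for 17.2% and downward for 10.7%. Of 9 tested genes for acyl-CoA synthesis and binding, none rose and 4 fell at 4 h, 2 rose and 3 fell at 48 h, and 1 rose and 3 fell at 72 h (3 and 2 after rescaling); Dbi, an acyl-CoA binding protein, was 848.5 TPM with and 489.5 TPM without IL-25 at 72 h (0.79, adjusted p = 5.2e-09). Of 6 tested genes for fatty acid uptake and binding, which include Fabp5, 1 rose and 1 fell at 4 h, 2 rose and 2 fell at 48 h, and 2 rose and none fell at 72 h.

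Of 13 tested PPAR and RXR receptors and their coregulators, which include Pparg, none rose and 5 fell at 4 h, 2 rose and 6 fell at 48 h, and 1 rose and 8 fell at 72 h; at 4 h rescaling turned this to 2 and 1. Rxrg, the receptor deleted in the KO, was 8.63 TPM with and 32.9 TPM without IL-25 at 4 h (-1.85, adjusted p = 8.0e-08) and 3.65 against 53.1 TPM at 48 h (-3.55, adjusted p = 2.1e-13), so that Pparg and Rxrg moved in opposite directions at 48 h. Of 11 tested PPAR target genes, a list that holds Plin2 and Cpt1a, 1 rose and 7 fell at 4 h, 4 rose and 3 fell at 48 h, and 2 rose and 4 fell at 72 h (3 and 2 after rescaling); Txnip, an inhibitor of thioredoxin, was 8.33 against 44.7 TPM at 48 h (-2.29, adjusted p = 2.4e-13). Of 18 tested genes for remodelling of lysophospholipids and for platelet-activating factor, which include Lpcat2, 2 rose and 6 fell at 4 h, 5 rose and 3 fell at 48 h, and 3 rose and 6 fell at 72 h. Over all genes, 13.4% rose and 26.9% fell at 4 h, 21.4% and 28.7% at 48 h, and 15.3% and 33.2% at 72 h. Lpcat3, which puts polyunsaturated acids into phospholipids, was 203.8 TPM with and 133.7 TPM without IL-25 at 48 h (0.61, adjusted p = 2.5e-05). Pla2g7, which breaks down platelet-activating factor, was 30.5 against 4.56 TPM (2.53, adjusted p = 1.5e-09) and Mboat1, another lysophospholipid acyltransferase, was 13.3 against 51.8 TPM (-1.89, adjusted p = 2.2e-10) at that time.

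In the other experiment, the levels of Dgat2, Plin2, Cpt1a and Lpcat2 did not overlap between nILC2 and iILC2 in either genotype. The same held for 41.8% of all genes tested in CTRL and for 30.6% in KO. In CTRL mice 5 of the 7 genes were called between iILC2 and nILC2, 1 higher (Cpt1a) and 4 lower (Dgat2, Pparg, Plin2 and Lpcat2) in iILC2, against a background of 45.5% of genes called, 21.9% higher and 23.6% lower. In KO mice the same 5 were called in the same directions, against 31.4%, 13.8% higher and 17.6% lower. The 2 tables were processed and normalized apart, so levels are not tested between them.

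Dgat2 held 596.6, 587.8, 759.1 and 660.2 TPM in nILC2 of CTRL mice and 5.45, 1.16, 5.91 and 5.63 TPM in iILC2. In KO mice nILC2 held 536.2, 372.1, 358.0 and 350.9 TPM and iILC2 held 5.09, 6.10, 2.74 and 3.42 TPM. Each nILC2 library was thus far above each iILC2 library, by 143.5-fold between the means in CTRL (log2 difference -7.01 ± 0.29, adjusted p = 4.4e-12) and 93.2-fold in KO (-6.27 ± 0.29, adjusted p = 4.7e-11). Lpcat2 held 42.1, 52.9, 62.8 and 73.4 TPM in nILC2 of CTRL mice and was listed at 0 in 3 iILC2 libraries and at 0.39 TPM in the other. In KO mice it held 57.1, 41.0, 15.7 and 25.7 TPM in nILC2 and 1.58, 0.69, 0 and 0.14 TPM in iILC2. Both differences were called (adjusted p = 2.4e-10 and 1.5e-08), and no fold is given against groups with libraries listed at 0.

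Dgat1 held 25.6, 23.6, 30.7 and 22.0 TPM in nILC2 CTRL, 26.98, 32.9, 25.3 and 15.1 TPM in nILC2 KO, 23.5, 22.6, 14.3 and 19.5 TPM in iILC2 CTRL and 14.7, 25.2, 14.7 and 16.3 TPM in iILC2 KO. The groups overlapped, and iILC2 did not differ detectably from nILC2 in CTRL (log2 difference -0.35 ± 0.22, adjusted p = 0.20) or in KO (-0.46 ± 0.22, adjusted p = 0.12); in KO the difference was called without nILC2 replicate 4 (-0.68, adjusted p = 0.015) or without iILC2 replicate 2 (-0.63, adjusted p = 0.036). Of the DGAT pair, only Dgat2 was called between the 2 cell groups.

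Pparg held 13.4, 9.93, 9.27 and 9.95 TPM in nILC2 CTRL and 5.90, 6.55, 5.03 and 4.40 TPM in iILC2 CTRL, 1.95-fold lower with no overlap (-0.85 ± 0.21, adjusted p = 0.0028). In KO mice it held 15.6, 16.2, 7.85 and 14.4 TPM in nILC2 and 9.18, 11.1, 6.86 and 7.40 TPM in iILC2, which overlapped (-0.56 ± 0.21, adjusted p = 0.048). The call in KO was lost with a pseudocount of 0.1 TPM (adjusted p = 0.052), after rescaling (0.066), after quantile normalization (0.16), with the compared groups alone (0.087) and without any of 6 libraries (adjusted p up to 0.13).

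Plin2 held 56.4, 68.7, 75.1 and 59.0 TPM in nILC2 CTRL and 43.2, 54.6, 44.7 and 41.6 TPM in iILC2 CTRL, and 53.9, 59.0, 62.9 and 61.5 TPM against 39.0, 47.2, 41.4 and 37.7 TPM in KO. It was 1.41-fold lower in iILC2 of CTRL mice (-0.48 ± 0.11, adjusted p = 0.0015) and 1.44-fold lower in KO (-0.51 ± 0.11, adjusted p = 0.0015). Cpt1a went the other way, with 29.8, 38.6, 32.3 and 28.8 TPM in nILC2 CTRL and 66.4, 56.0, 50.7 and 59.1 TPM in iILC2 CTRL. In KO mice it held 28.6, 32.7, 32.6 and 26.6 TPM in nILC2 and 55.2, 57.7, 51.6 and 51.7 TPM in iILC2. It was 1.80-fold higher in iILC2 of CTRL mice and 1.79-fold higher in KO, with no overlap (0.83 ± 0.11 and 0.82 ± 0.11, adjusted p = 7.0e-06 and 1.7e-05). Fabp5 held 46.8, 58.9, 53.2 and 29.1 TPM in nILC2 CTRL and 44.1, 56.2, 44.1 and 50.2 TPM in iILC2 CTRL. In KO it held 40.6, 62.8, 75.4 and 60.9 TPM in nILC2 and 55.7, 51.9, 53.4 and 53.8 TPM in iILC2. All 4 ranges of Fabp5 overlapped (log2 differences of 0.09 in CTRL and -0.12 in KO, adjusted p = 0.73 and 0.66).

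**Figure D4:**
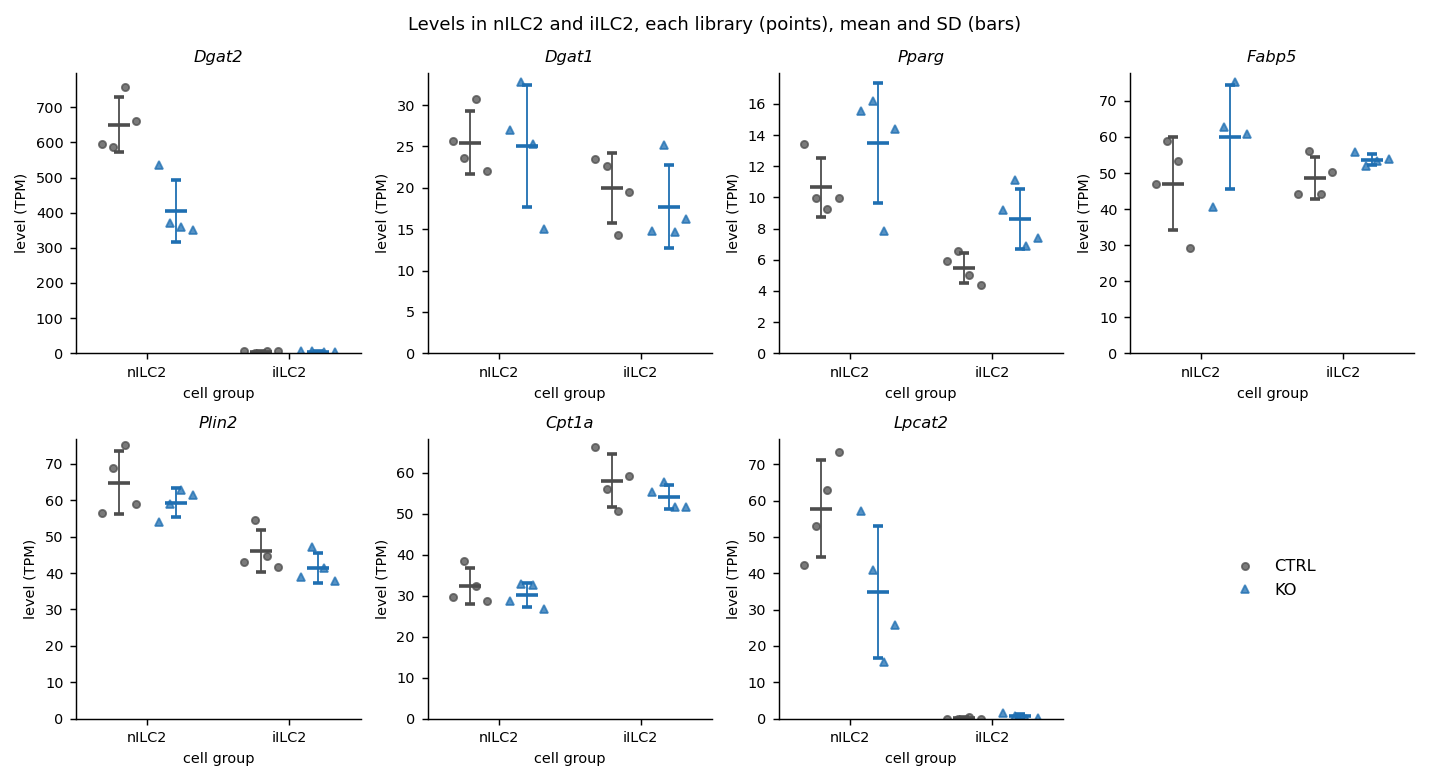
Level (TPM, linear axes from 0) of each of the 7 genes in the 16 nILC2 and iILC2 libraries. Points are single libraries, grey circles CTRL and blue triangles KO, and bars give the mean and SD of 4 libraries. Dgat2 and Lpcat2 are near 0 in iILC2, Cpt1a is higher there in both genotypes, and the nILC2 KO libraries of Dgat2, at 350.9 to 536.2 TPM, all lie below the CTRL libraries, the lowest of which held 587.8 TPM.

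None of the 7 genes was called between KO and CTRL in nILC2, where 1.54% of all genes were (61.3% of calls higher, and 75% with median of ratios rescaling), and none in iILC2, where 0% were (limma). In iILC2 the deleted gene Rxrg itself was not called (-1.045 ± 0.21, adjusted p = 0.44), although its KO libraries all lay below CTRL. The lack of calls in iILC2 therefore does not show a lack of change. By unadjusted p under 0.05, 2 of the 7 passed in nILC2 (Dgat2 and Lpcat2) against 19.3% of all genes, and 1 in iILC2 (Pparg) against 3.26%. Dgat2 in nILC2 averaged 404.3 ± 88.4 TPM (SD, n = 4) in KO and 650.9 ± 79.0 TPM in CTRL, 1.61-fold lower (log2 difference -0.70 ± 0.29, adjusted p = 0.19). All KO libraries lay below all CTRL libraries, as for 3.08% of all genes tested. Some markers moved with it in the same libraries. Of the 12 ILC2 markers, Gata3 (186.1 to 243.6 against 262.8 to 293.6 TPM) and Il17rb, a subunit of the IL-25 receptor (176.4 to 238.6 against 243.9 to 320.2 TPM), were lower in every KO library, and Id2 averaged 519.5 against 754.7 TPM. Thy1 (19.1 against 14.4 TPM) and Icos (188.8 against 180.5 TPM) averaged higher in KO, and the other ILC2 markers averaged lower. The summed ILC2 markers were 2089 to 2835 TPM in KO and 2801 to 3130 TPM in CTRL. Epcam (6.46 to 12.8 against 15.5 to 28.1 TPM) and the T cell marker Cd6 (13.8 to 25.5 against 30.9 to 56.4 TPM) were lower without overlap too. Lgals4 and Cd3g averaged lower, whereas Krt18 (5.1 against 3.3 TPM) and Cd5 (3.0 against 2.7 TPM) averaged higher in KO. The part of these markers in the difference of Dgat2 was not tested. Lpcat2 in nILC2 averaged 34.9 ± 18.1 TPM in KO and 57.8 ± 13.4 TPM in CTRL, with overlapping libraries (-0.84 ± 0.33, adjusted p = 0.18). Replicate 1 of the nILC2 KO was the highest of its group for both genes; without it Lpcat2 was called lower (-1.12, adjusted p = 0.037), while Dgat2 was not (-0.84, adjusted p = 0.087), and the number of genes called in the table went from 155 to 1006. In iILC2 Pparg averaged 8.64 ± 1.92 TPM in KO and 5.47 ± 0.95 TPM in CTRL, with all KO libraries above all CTRL libraries, as for 1.36% of all genes (0.57 ± 0.21, adjusted p = 1.00). In nILC2 the Pparg libraries of KO and CTRL overlapped (0.28 ± 0.21, adjusted p = 0.49). The difference between the KO effects in the 2 cell groups was called for none of the 7, nor for any gene tested (0%); by unadjusted p under 0.05 it passed for 1 of the 7, Lpcat2 (1.296 ± 0.47, adjusted p = 0.36), against 10.5% of all genes. Of the Y-linked split described above, 2 of the 4 nILC2 KO libraries and 1 of the 4 CTRL libraries were at or near 0; with a term for it, added after the data were seen, none of the 7 genes was called in either cell group.

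Between KO and CTRL in nILC2, where 1.54% of all genes were called, the call among the 9 lists was Rxrg itself, and in iILC2, where 0% were, no list gene was called, Rxrg included. After quantile normalization 1 of the 10 droplet genes was called higher and 1 lower in nILC2 KO. The 5 lipolysis genes had a list median of -0.31 in nILC2 beside -0.003 for all genes, with none of them called. Over all genes, 21.9% were called higher and 23.6% lower in iILC2 than in nILC2 of CTRL mice, and 13.8% and 17.6% in KO. These shares are the background for the list counts between the cell groups. Between iILC2 and nILC2 of CTRL mice, 7 of 18 tested genes of mitochondrial import and beta oxidation rose and 1 fell, and in KO mice 6 rose and none fell (list medians 0.15 and 0.23 beside -0.03 and -0.05 for all genes). Quantile normalization gave 7 and 2 with a list median of -0.01 in CTRL, and 3 and 1 in KO, where median of ratios rescaling gave 8 and 0. Acads, a short-chain acyl-CoA dehydrogenase, was 49.0 TPM in iILC2 and 29.7 TPM in nILC2 of CTRL mice (0.70, adjusted p = 8.3e-05). Of 8 tested genes for acyl-CoA synthesis and binding, 4 rose and 1 fell in CTRL (6 and 0 after quantile normalization), and 5 rose and 1 fell in KO (4 and 0); Dbi was 526.3 against 237.5 TPM in CTRL (1.16, adjusted p = 1.6e-06). Of 14 tested glycerolipid genes, 2 rose and 3 fell in CTRL, and 1 rose and 2 fell in KO, but quantile normalization turned the balance to 4 and 2 in CTRL and 3 and 2 in KO; Agpat4 was 64.9 against 26.3 TPM in CTRL (1.28, adjusted p = 3.3e-07). Of 10 tested lipid droplet genes, 3 rose and 4 fell in CTRL, and 1 rose and 3 fell in KO; Hilpda was 12.4 against 30.3 TPM in CTRL (-1.23, adjusted p = 3.1e-05). Of 16 tested lysophospholipid genes, 1 rose and 5 fell in either genotype; Pla2g7 was 4.00 against 15.98 TPM in CTRL (-1.77, adjusted p = 0.00061). Of 5 tested lipolysis genes 2 rose and 1 fell in CTRL, and 1 rose and none fell in KO, with Pnpla2, the triglyceride lipase of lipid droplets, at 64.5 against 44.1 TPM in CTRL (0.55, adjusted p = 0.0019). Markers moved between the cell groups as well. The summed ILC2 markers were lower in iILC2, but single ones differed. In CTRL Id2 averaged 101 against 754.7 TPM, Il7r 25.9 against 312.6 TPM and Il2ra 1.71 against 53.7 TPM. Thy1 averaged higher in iILC2, at 32.2 against 14.4 TPM in CTRL and 42.2 against 19.1 TPM in KO. Icos (190.8 against 180.5 TPM) and Bcl11b (8.262 against 8.105 TPM) averaged slightly higher in CTRL. The other ILC2 markers averaged lower there. Of the 3 listed T cell markers, Cd6 averaged 0.43 TPM in CTRL and 0.63 TPM in KO against 40.8 and 17.8 TPM in nILC2, no library of iILC2 exceeded 0.17 TPM of Cd5 against 2.12 to 4.40 TPM, and Cd3g held 6.97 to 30.2 against 24.4 to 87.1 TPM, which overlapped. Pecam1 (43.6 to 61.9 against 68.6 to 93.1 TPM) was lower in iILC2 without overlap, and Epcam held 2.1 to 6.58 against 6.46 to 28.1 TPM and Krt18 5.71 to 12.5 against 2.33 to 6.19 TPM. Cd79b (231.9 to 282.1 against 116.5 to 153.8 TPM) and Cd68 (5.83 to 11.2 against 0.71 to 4.55 TPM) were higher in iILC2. Their part in the differences of the 7 genes was not tested.

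Genes whose course over the 24 culture libraries was most like that of 4 of the members were sought among 7294 genes with a mean of at least 10 TPM in 1 or more culture groups, by Pearson's r of log2(TPM + 1). The points share libraries, groups and scaling, so r is a description. For Dgat2 these were Nr4a1 (r = 0.989), Zc3h12a (0.983), Kif3b (0.982) and Jun (0.980), of which Nr4a1 and Jun are known as immediate early transcription factors; over the 16 nILC2 and iILC2 libraries the same pairs gave 0.968, 0.890, 0.678 and 0.964. For Lpcat2 they included Plxdc2 (0.986), Slfn2 (0.984) and Nsg2 (0.980), and over the 16 libraries Plxdc2 and Slfn2 gave 0.973 and 0.697. For Pparg they included Ndfip1 (0.963), Rac1 (0.956) and Dnajb13 (0.954), whose r over the 16 libraries was negative in each case (-0.580, -0.456 and -0.635). For Fabp5 they were Zbtb32 (0.971), Tnfrsf8 (0.961), Fcmr (0.954) and Il10 (0.951), and over the 16 libraries the first 2 gave -0.019 and 0.502. Among the members themselves, Dgat2 and Lpcat2 had r = 0.984 over the 16 libraries and -0.153 over the 24 culture libraries, and Fabp5 and Lpcat2 had -0.093 and -0.912.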

How the data were processed

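RNA expression of mouse ILC2s was measured in 40 Smart-seq2 libraries sequenced as paired 150-base reads; the other 14 samples (chromatin libraries) are not analysed here. The deposited values are TPM, one table per experiment, and the authors' tools, per the submitters' processing notes, include cutadapt 2.10, STAR 2.7.5c and RSEM 1.3.3 with the mm10 build; the role and order of each are not given there. The sums of 873200 to 898025 and 849733 to 886670 TPM per library show that the tables hold part of the genes. Read depth is unknown, so no counting interval is given.

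A gene was tested where 4 or more libraries reached 1 TPM, on log2(TPM + 1) with limma 3.58.1 (R 4.3.3; linear model with a mean per group, all groups of a table in one fit, moderated test with an intensity trend), two-sided, with Benjamini-Hochberg adjustment over all genes tested and a threshold of 0.05, in 14 comparisons. A fold between means is of TPM; a log2 difference understates the change of low genes. On simulated data, 88 of 100 genes changed by 1 on the log2 scale and 100 of 100 changed by 2 were called in a design like IL-25 at 4 h (10548 genes, 15 false calls), and 90 and 98 of 100 in one like KO in nILC2 (10069 genes, 8 false calls). The changed genes were few and drawn from genes above a low level, whereas 40.3% of all genes were called with IL-25 at 4 h. Recovery of low genes, or with so many genes changed, was not simulated. Alternatives were a pseudocount of 0.1 TPM, no filter, a filter of 5 TPM, median of ratios rescaling, quantile normalization, the compared groups alone, a replicate block and leaving out each library; a term for Y-linked expression was added after the data were seen. No per-sample column was left unused (0).

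The 7 genes and the 9 gene lists were chosen with earlier results of these data known. Besides the 7, the genes named from each list are from up to 4 that rose and up to 4 that fell most among those called, with a mean of at least 10 TPM in the higher group; the 4 genes most like a member are by Pearson's r, and 2 of these genes are not reported here. The labels state no pairing by replicate number, although the libraries without Y-linked expression carry the same numbers in nILC2 and iILC2. Same-numbered libraries deviated together in every pair (r over 0.1) only between nILC2 KO and iILC2 KO (0.102 to 0.231), where a replicate block changed no call of the 7 genes. Between nILC2 CTRL and iILC2 CTRL, 3 of the numbers passed 0.1 (0.049 to 0.253). The same count passed between groups of unlike genotype, such as nILC2 KO and iILC2 CTRL (-0.0186 to 0.243). Promoter sequences and gene positions are from RefSeq tables for GRCm38.p6, the same assembly as mm10. Python 3.11.15, scipy 1.17.1, pandas 2.3.3 and matplotlib 3.10.9 were used.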

Additional observations from a re-analysis of the deposited data

Results flagged for a closer look

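Over 70 groups of 4 libraries (7 genes in 10 groups), 6 held a library far from the other 3, and chance gives about 1 in 20 groups. Lpcat2 stood at 2.58 TPM in replicate 3 of the 48 h IL-25 cultures, with the others at 0.96 to 1.20 TPM. Dgat2 stood at 536.2 TPM in replicate 1 of nILC2 KO (350.9 to 372.1 TPM in the others) and at 1.16 TPM in replicate 2 of iILC2 CTRL (5.45 to 5.91 TPM). Dgat1 stood at 25.2 TPM in replicate 2 of iILC2 KO (14.7 to 16.3 TPM). Pparg stood at 13.4 TPM in replicate 1 of nILC2 CTRL (9.27 to 9.95 TPM). Lpcat2 stood at 0.39 TPM in replicate 3 of iILC2 CTRL, with the others listed at 0.

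The difference between cultures with and without IL-25 changed between times, by limma's test of the change itself. From 4 to 48 h the change on the log2 scale was -1.74 for Dgat2, 1.62 for Dgat1, 1.82 for Pparg, 1.37 for Fabp5, 1.20 for Plin2, 1.16 for Cpt1a and -2.68 for Lpcat2. From 48 to 72 h it was 1.15 for Dgat1, -0.82 for Pparg and -0.57 for Fabp5.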

How the results depend on the processing

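Of 54 called differences of the 7 genes, all 54 kept their sign and 46 their call under every setting run; the other 8 lost it under at least 1. Of 44 not called, 5 refits without 1 library and 7 refits with another setting gave a call. Depth is unknown, so the counting error of low levels, such as Lpcat2 in iILC2, cannot be stated. Over all genes, the count called between 72 and 48 h without IL-25 (40) was 26 with a pseudocount of 0.1 TPM, 86 after quantile normalization, 1 with the compared groups alone and 11 to 49 without single libraries. The count for KO in nILC2 (155) was 82 with that pseudocount, 272 after median of ratios rescaling, 5 with the compared groups alone, 87 with a term for Y-linked expression and 23 to 1006 without single libraries, the highest without replicate 1 of nILC2 KO; there, 0 to 1 of the 7 genes were called. The count for the difference of the KO effects (0) was 1 after quantile normalization, 5 with the Y-linked term and 0 to 132 without single libraries, the highest again without that library. Of the 7 genes, 1 in place of 3 had a called change of the IL-25 difference from 48 to 72 h after quantile normalization. The cause of these shifts was not tested.

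With a replicate block, 317 genes were called for KO in nILC2 and 8 for the difference of the KO effects, and the block changed no other count by over 1.5 times and no count of the 7 genes.

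Signs reversed for other listed genes after median of ratios rescaling: Bscl2 (0.21) and Acadl (0.052) with IL-25 at 72 h; Ldah (0.042), Aup1 (0.050), Acadvl (0.29) and Hadhb (0.13) at 48 against 4 h without IL-25; Hilpda (0.068) and Acads (0.27) at 48 against 4 h with IL-25. After quantile normalization, Bscl2 (-0.045) and Hadhb (-0.037) reversed between iILC2 and nILC2 of CTRL mice.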
